A study of Mus musculus with 7 samples.

Results

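The insulin-like growth factor genes and their binding proteins were followed in plantaris muscle: the ligand genes Igf1 and Igf2, the receptor genes Igf1r and Igf2r, and the binding protein genes Igfbp2, Igfbp3, Igfbp4, Igfbp5, Igfbp6 and Igfbp7. All probe sets that the array's annotation gives to a single one of these symbols were taken, and each gene was led by its brightest probe set. This gave 10 genes of 18193 measured and 28 probe sets of 34945 with a single symbol. All 10 genes had a leading probe set above background on every array.

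Muscle RNA was measured on 7 Affymetrix mouse430_2.0 arrays from Pax7-DTA mice, 4 months old. In these mice the satellite cell gene Pax7 drives CreER, and after tamoxifen the recombined Rosa26 locus makes diphtheria toxin A inside the Pax7 cells. Every group carried these alleles, so vehicle against tamoxifen differs by the drug itself as well as by the cell loss, and these cannot be told apart. There was 1 array of vehicle with sham surgery (male), 1 of tamoxifen with sham surgery (male), 2 of vehicle with 1 week of overload by synergist ablation (replicate 1 female, replicate 2 male) and 3 of tamoxifen with 1 week of overload (replicate 3 female, replicates 1 and 2 male). The titles read as single mice, whereas the design text speaks of pooled right and left muscles from 11 animals, so how many animals each array holds is uncertain. The p-values therefore measure the spread between arrays, part of which may be technical, and the single sham arrays were assumed to vary like the overloaded ones.

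Insulin-like growth factors are secreted peptides that promote growth and survival of many cells. Both act through the tyrosine kinase receptor encoded by Igf1r, whereas the receptor encoded by Igf2r binds IGF-II, takes it up for breakdown in lysosomes and also sorts lysosomal enzymes. Binding proteins hold the ligands outside the cell, where proteases release them. In skeletal muscle, IGF-I is known for its part in fibre growth and repair, and IGF-II for its expression in differentiating myoblasts. Igf2 is an imprinted gene, read mainly from the paternal copy.

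The arrays had the profile of the labelled tissue. All 10 muscle fibre markers were above background, and their mean log2 level per array was 14.63 to 15.23. Median signal was 88.2 to 127.7 units per array after the deposited scaling, lowest in the sham arrays, and 66.8% to 72.7% of genes were above background (a signal of 53.6, which 95% of 77 olfactory, vomeronasal and taste receptor genes did not exceed). Pax7, the marker of the depleted cells, had a signal of 92.8 in vehicle sham, 41.2 in tamoxifen sham (below background), 274 and 349 in vehicle overload, and 120, 57.9 and 9.97 in tamoxifen overload replicates 3, 1 and 2. The log2 difference of Pax7 between tamoxifen and vehicle in overload was -2.67 ± 0.81 (SE), with a limma adjusted p of 0.399. In overload Pax7 was lower on every tamoxifen array than on both vehicle arrays, as 12.6% of all genes were.

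Promoter windows of the ligand genes and of Igfbp4 are shown because these genes had the largest overload differences among the 10. Each is the 250 bases before an annotated start in the RefSeq table of build GRCm38.p6, read 5′ to 3′ on the gene's strand. All 10 genes matched this table, with 14 windows. Capitals mark matches, on either strand, to 3 motifs: the TATA box letters TATAAA, the CCAAT box, and the GC box letters GGGCGG. No such matches overlap in the windows shown. For Igf2, which has 4 windows, those with a match are printed.
Igf1, chr10:87860861-87861110, plus strand: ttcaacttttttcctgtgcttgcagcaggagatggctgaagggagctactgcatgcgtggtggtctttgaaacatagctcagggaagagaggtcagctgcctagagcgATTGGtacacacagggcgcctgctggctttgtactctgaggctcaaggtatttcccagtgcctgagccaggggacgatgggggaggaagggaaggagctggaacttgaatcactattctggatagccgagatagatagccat
Igf2 first window, chr7:142657497-142657746, minus strand: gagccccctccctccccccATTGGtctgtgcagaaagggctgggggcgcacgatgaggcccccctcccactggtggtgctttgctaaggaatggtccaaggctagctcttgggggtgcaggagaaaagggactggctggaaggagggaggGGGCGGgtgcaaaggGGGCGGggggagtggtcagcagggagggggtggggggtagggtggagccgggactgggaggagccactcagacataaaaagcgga
Igf2 second window, chr7:142658805-142659054, minus strand: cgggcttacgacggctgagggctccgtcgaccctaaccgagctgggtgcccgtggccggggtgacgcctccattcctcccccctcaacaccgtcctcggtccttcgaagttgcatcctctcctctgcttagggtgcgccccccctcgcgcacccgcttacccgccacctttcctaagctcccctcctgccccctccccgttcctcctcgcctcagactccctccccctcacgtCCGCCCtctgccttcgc
Igfbp4, chr11:99040994-99041243, plus strand: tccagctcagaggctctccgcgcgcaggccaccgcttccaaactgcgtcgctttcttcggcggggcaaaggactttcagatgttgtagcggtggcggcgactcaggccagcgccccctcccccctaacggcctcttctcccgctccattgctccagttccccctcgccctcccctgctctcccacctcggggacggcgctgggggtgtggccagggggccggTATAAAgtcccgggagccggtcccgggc
The Igf1 window has 1 CCAAT match, which begins at base -142, and is 52.8% G and C. The printed Igf2 windows are 66.0% and 68.8% G and C (47.6% and 50.8% in the other 2), and hold GGGCGG at bases -100 and -85 in the first and at base -17 in the second. Igfbp4 has TATAAA at base -28. Among all 32851 windows of this length, 12.4% held the TATA letters, 33.8% the CCAAT box, 32.7% the GC box letters and 66.2% the E-box letters CANNTG, against 2, 3, 6 and 9 of the 14 windows here. In the same assembly, among protein-coding genes and H19, Igf2 lies between H19 and Ins2, Igfbp2 next to Igfbp5, and Igfbp3 next to Igfbp1. The array does not show from which Igf2 start the RNA came.

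The first comparison asked how the genes differ between overloaded and sham muscle, with vehicle and tamoxifen averaged. Both ligand genes rose, together with Igf2r and the binding protein genes Igfbp3, Igfbp4 and Igfbp7, and none of the 10 fell. These 6 calls stand against 14.7% of all genes called higher and 8.16% called lower. The median log2 difference of the 10 genes was 0.76, against 0.07 over all genes. A gene was called at an adjusted p under 0.05, from limma with a sex term and Benjamini-Hochberg adjustment over all genes.

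**Figure D1:**
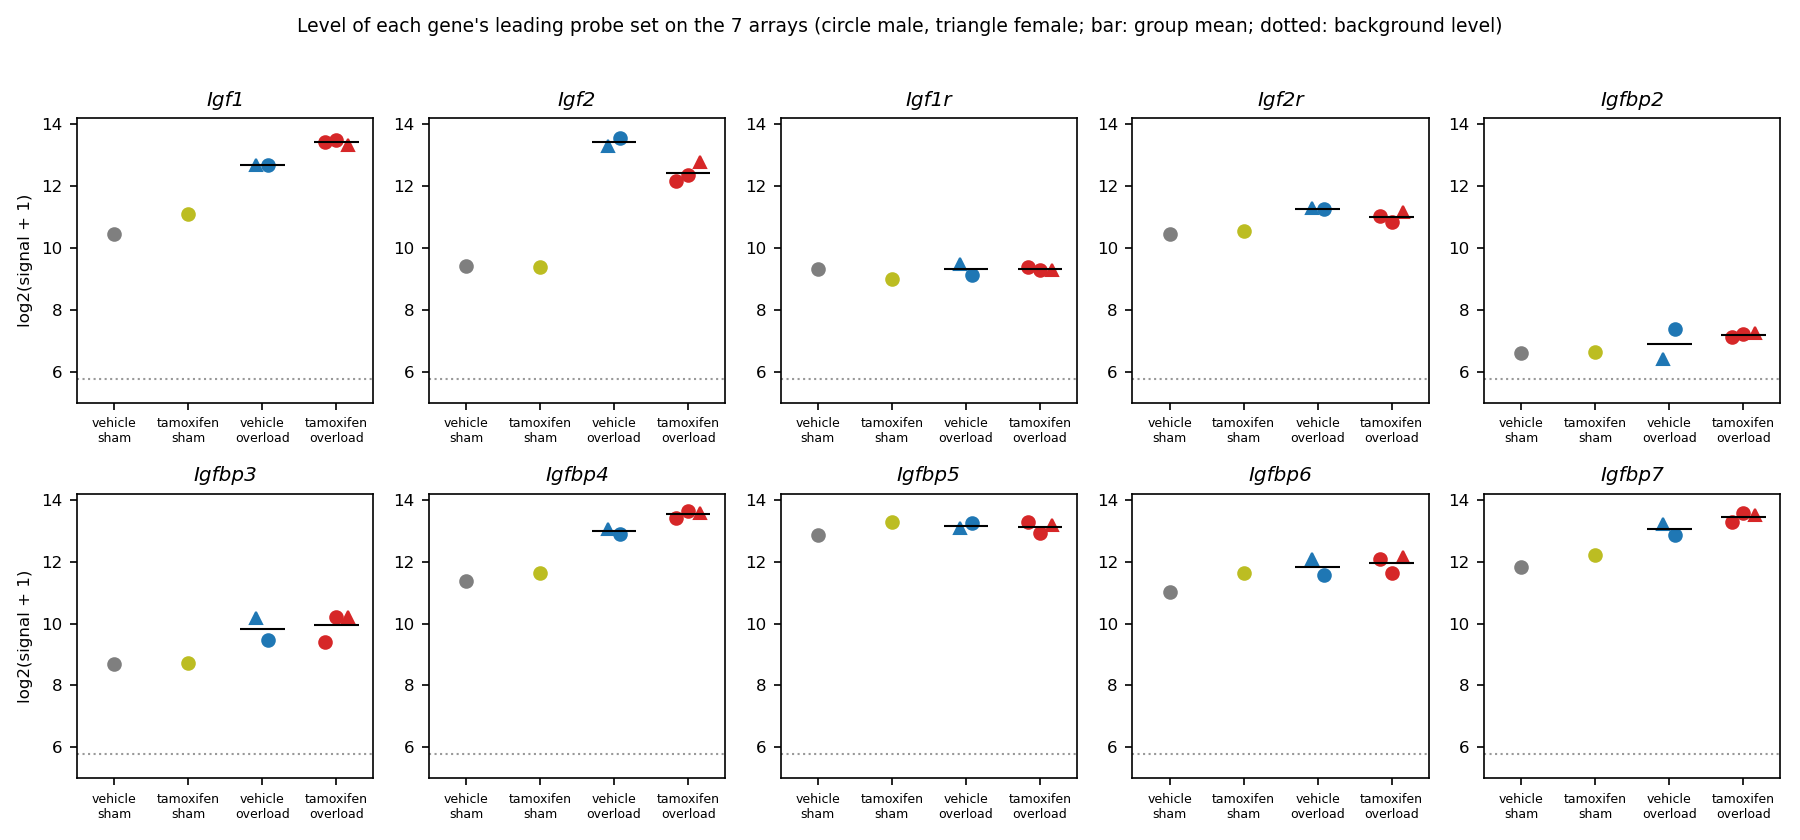
Level of the leading probe set of each gene, as log2(signal + 1) on the vertical axis, in the 4 groups; circles are male and triangles female arrays, bars are means of groups with over 1 array, and the dotted line is the background level of 5.77. The overloaded arrays lie above both sham arrays for Igf1, Igf2, Igf2r, Igfbp3, Igfbp4 and Igfbp7, and Igf1 and Igf2 separate vehicle from tamoxifen in opposite directions.

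Igf1, which encodes IGF-I, had a signal of 1398 in vehicle sham and 2210 in tamoxifen sham. It reached 6549 and 6644 in vehicle overload, and 11059, 11564 and 10304 in tamoxifen overload replicates 1, 2 and 3. Every overloaded array was above both sham arrays, as for 23.1% of all genes (18.3% were lower on every overloaded array), and the groups kept the order vehicle sham, tamoxifen sham, vehicle overload, tamoxifen overload. Over both treatments Igf1 rose 4.96-fold (95% interval 4.01 to 6.12), a log2 difference of 2.31 ± 0.13 (SE), with an adjusted p of 6.37e-05. The steps between vehicle sham and tamoxifen sham (no replicate) and between vehicle and tamoxifen overload (not called, below) are not resolved. Other Igf1 probe sets disagreed on the direction of the sham step (below).

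Igf2, which encodes IGF-II, was low in both sham arrays, at signals of 687 with vehicle and 667 with tamoxifen. Vehicle overload gave 9994 and 12085. Tamoxifen overload gave 4624, 5215 and 6992 in replicates 1, 2 and 3. All overloaded arrays were above the sham arrays, and among them the vehicle arrays were the higher. Igf2 rose 10.9-fold over both treatments (95% interval 8.05 to 14.8), with a log2 difference of 3.45 ± 0.19 and an adjusted p of 5.88e-05. By size of increase it ranked 107 of 18193 genes, and Igf1 490.

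The receptor genes differed less. Igf2r had log2 levels of 10.46 and 10.54 in sham, 11.30 and 11.25 in vehicle overload and 10.85 to 11.15 in tamoxifen overload, so that sham and overload did not overlap. It rose by 0.58 ± 0.14 on the log2 scale (1.49-fold, adjusted p 0.0196). Igf1r, the signalling receptor of both ligands, stayed between 9.01 and 9.49 on all arrays and overlapped between sham and overload, with a log2 difference of 0.10 ± 0.17 (95% interval -0.30 to 0.50, adjusted p 0.738).

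Among the binding protein genes, Igfbp4 showed the largest overload difference. IGFBP-4 is mainly an inhibitor of IGF action and is cut by the protease PAPP-A. The log2 level of Igfbp4 was 11.37 and 11.64 in sham, 13.07 and 12.90 in vehicle overload, and 13.42, 13.62 and 13.58 in tamoxifen overload replicates 1, 2 and 3, with no overlap between sham and overload. It rose 3.27-fold, a log2 difference of 1.71 ± 0.14 with an adjusted p of 0.000283.

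Igfbp7, whose product binds IGFs weakly and is found in vessel walls and matrix, had log2 levels of 11.84 and 12.21 in sham, 13.23 and 12.87 in vehicle overload and 13.27 to 13.58 in tamoxifen overload. It rose 2.21-fold (log2 difference 1.14 ± 0.16, adjusted p 0.00221), again without overlap. Igfbp3, whose product is the main carrier of IGFs in blood, had log2 levels of 8.70 and 8.74 in sham and 9.42 to 10.22 over the 5 overloaded arrays. It rose 1.93-fold (log2 difference 0.95 ± 0.24, adjusted p 0.0259), and in overload its lower values were those of vehicle replicate 2, at 9.48, and tamoxifen replicate 1, at 9.42.

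Igfbp2, Igfbp5 and Igfbp6 were not called. Igfbp5, abundant in muscle and known for its induction during myoblast differentiation, lay between 12.87 and 13.29 on all arrays (log2 difference 0.09 ± 0.16, 95% interval -0.29 to 0.46, adjusted p 0.764). Igfbp6, whose product prefers IGF-II, had log2 levels of 11.02 and 11.62 in sham and 11.58 to 12.16 in overload, and its difference was 0.42 ± 0.17 with an adjusted p of 0.115. Igfbp2 was the dimmest of the 10, at 6.42 to 7.40, with a difference of 0.57 ± 0.35 and an adjusted p of 0.291.

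The calls depended in part on how arrays were scaled and how the spread was estimated. When the arrays were set to a common median, the median difference of all genes went from 0.07 to -0.22, and 1740 of 4450 calls were then higher, against 2678 of 4163 as deposited. Igf1, Igf2, Igfbp4 and Igfbp7 were also called with that centring, with log2 differences of 2.02, 3.16, 1.42 and 0.85, whereas Igf2r (0.29, adjusted p 0.262) and Igfbp3 (0.66, adjusted p 0.0578) were not, and Igf1r and Igfbp5 turned to -0.19 and -0.20. Without vehicle overload replicate 2, Igf2r (0.51, adjusted p 0.195) and Igfbp3 (adjusted p 0.0706) were not called. Averaging all probe sets of a gene also ended the Igf2r call (0.123), and quantile normalization that of Igfbp3 (0.0596). When the spread was not modelled as a trend on intensity, limma called no gene of the array, although 5234 had an unadjusted p under 0.05, and the adjusted p of Igf1 and of Igf2 was 0.0575.

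Other probe sets bore on these values. All 4 of Igf1 were called higher with overload, with log2 differences of 2.31 to 2.71, as were all 6 of Igfbp4 (1.67 to 2.23) and both of Igfbp3 (0.95 and 1.64). The second probe set of Igf2 was also called, but it was not above background in either sham array. Of the 3 for Igfbp7, 2 were called and the third was below background on every array. Igf2r had 1 of 2 called, the other with a difference of 0.16. The 5 of Igf1r disagreed in size, from 0.10 for the brightest to 1.11 for the dimmest, which was not above background in either sham array, and none was called.

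**Figure D2:**
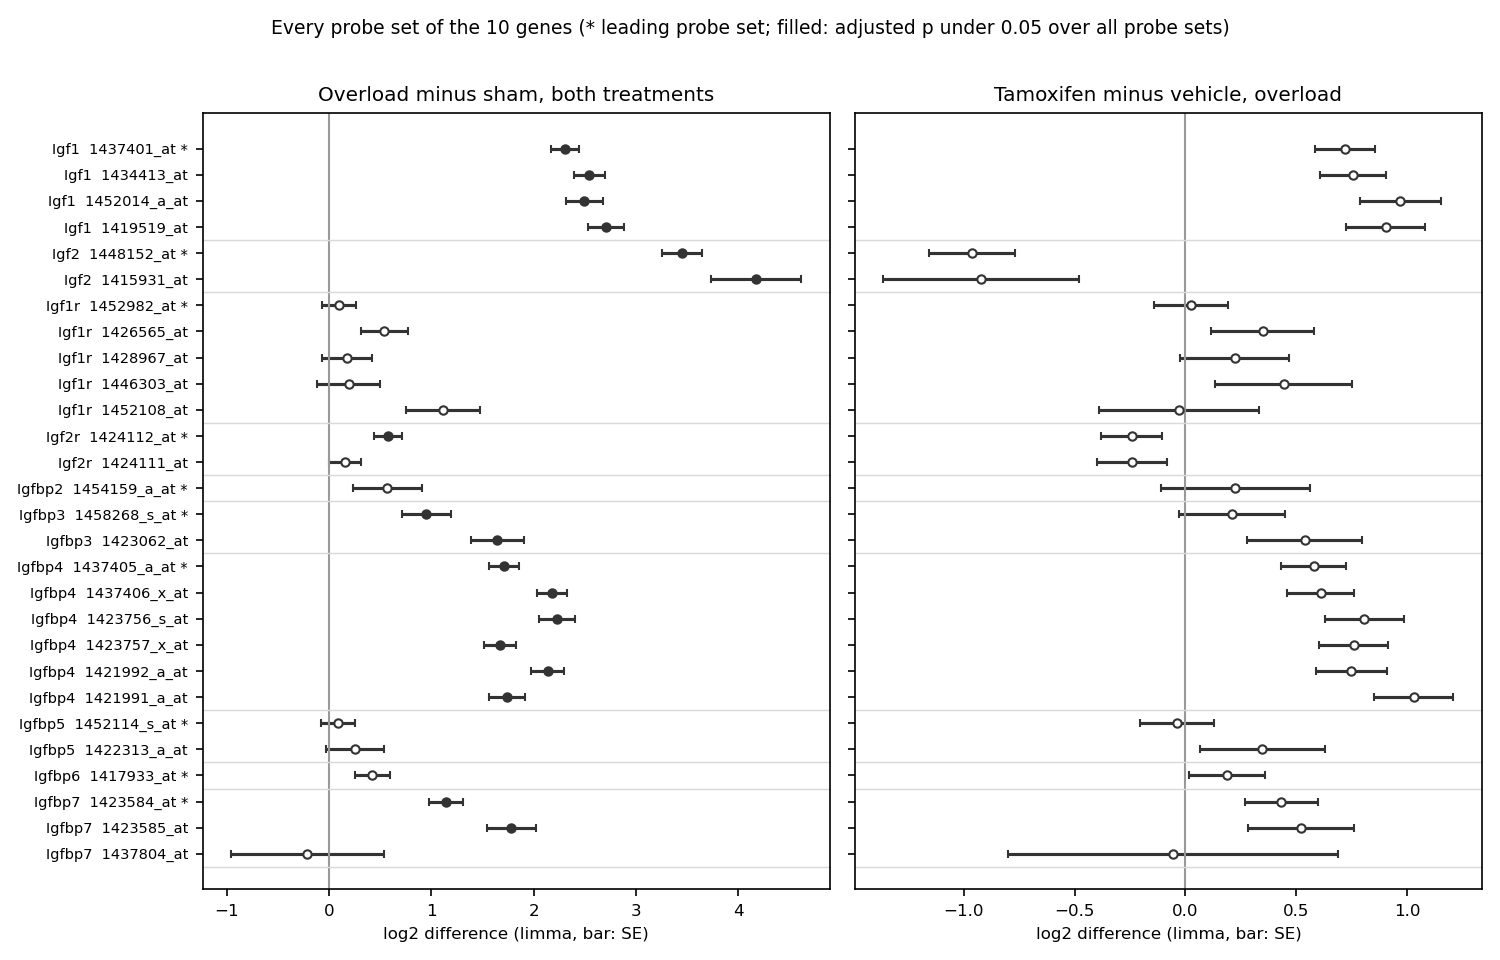
Log2 difference (horizontal axis, bar: SE from limma) of each of the 28 probe sets, named by gene and probe set with an asterisk at the leading one, for overload minus sham (left) and tamoxifen minus vehicle in overload (right); filled points have an adjusted p under 0.05. All 4 Igf1 and all 6 Igfbp4 probe sets lie right of 0 in both panels, and both Igf2 probe sets lie right of 0 on the left and left of 0 on the right.

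The same comparison was then made within each treatment. With vehicle, 4 of the 10 genes rose and none fell, where 6.35% of all genes were called higher and 2.44% lower. With tamoxifen, 4 rose and none fell, where 9.98% of all genes were called higher and 4.9% lower. In each treatment these were Igf1, Igf2, Igfbp4 and Igfbp7. The 2 comparisons share no array, but they share the spread and the sex term of 1 fit.

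Igf1 rose 4.86-fold with vehicle (log2 difference 2.28 ± 0.19, adjusted p 0.000781) and 5.06-fold with tamoxifen (2.34 ± 0.17, adjusted p 0.000501). Igf2 rose 15.0-fold with vehicle (3.91 ± 0.27, adjusted p 0.000428) and 7.95-fold with tamoxifen (2.99 ± 0.25, adjusted p 0.000726). Igfbp4 rose 2.94-fold and 3.65-fold, and Igfbp7 2.16-fold and 2.26-fold, the latter not called when probe sets were averaged (adjusted p 0.0877). The Igfbp7 call with vehicle (adjusted p 0.0239) was lost in 8 of 16 alternatives. These include the omission of vehicle overload replicate 1 or of tamoxifen overload replicate 3, and male arrays alone, each with a log2 difference of 1.03. Omitting either female array leaves the other to set the sex term alone, so these fits rest on the same male arrays and are not separate. Without vehicle overload replicate 2 the vehicle calls of Igfbp7 (log2 difference 1.31) and Igfbp4 (1.63) were lost as well.

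Igf2r missed the threshold in each treatment, with log2 differences of 0.74 ± 0.19 with vehicle (adjusted p 0.0543) and 0.42 ± 0.18 with tamoxifen (0.159), and Igfbp3 did too, at 0.87 ± 0.34 (0.170) and 1.03 ± 0.31 (0.0631). These sit near the threshold: without tamoxifen overload replicate 1, Igf2r with vehicle (adjusted p 0.0384) and Igfbp3 with vehicle (0.0298) and with tamoxifen (0.00327) were called, and without tamoxifen overload replicate 2, Igf2r with vehicle was called (0.0332). Igfbp5 had differences of 0.32 ± 0.23 with vehicle and -0.15 ± 0.21 with tamoxifen.

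**Figure D3:**
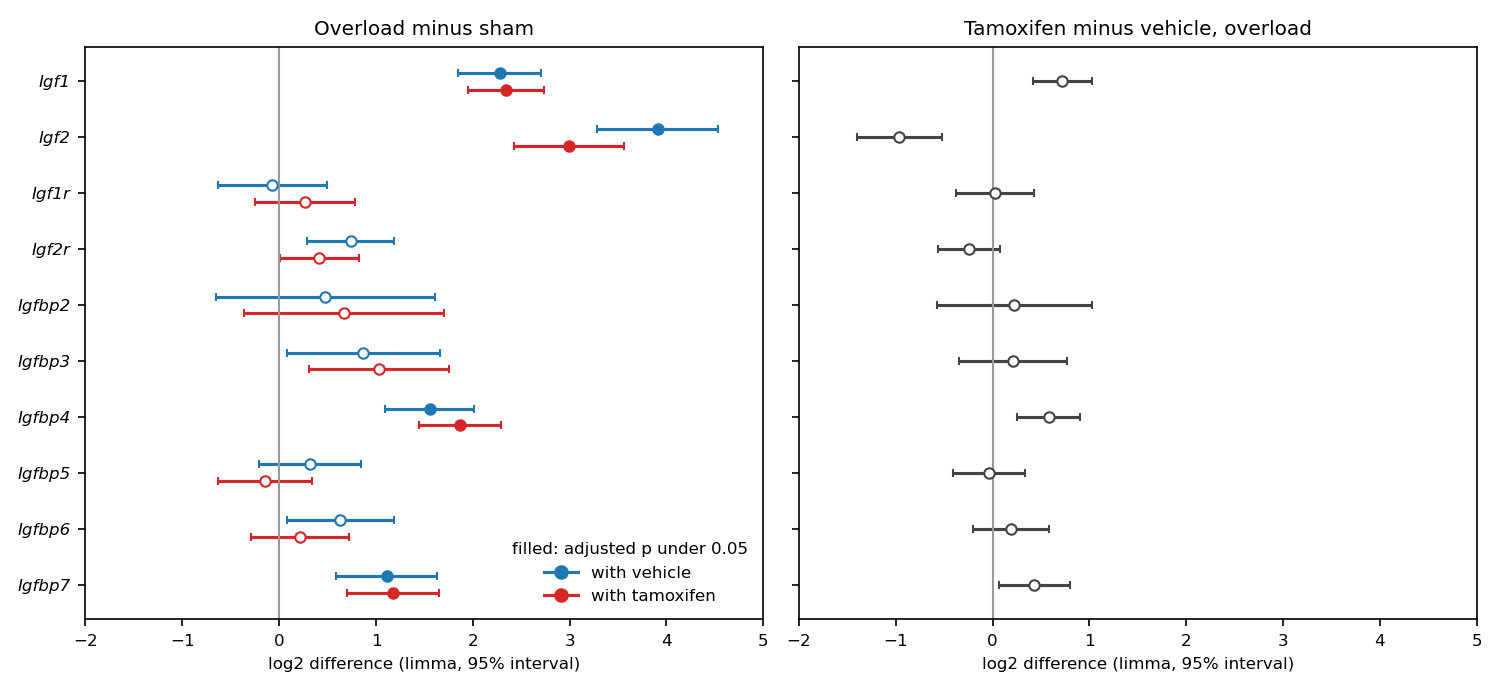
Log2 difference with its 95% interval (horizontal axis, limma) for the 10 genes, as overload minus sham with vehicle (blue) and with tamoxifen (red) on the left, and as tamoxifen minus vehicle in overloaded muscle on the right; filled points have an adjusted p under 0.05. Igf1, Igf2, Igfbp4 and Igfbp7 are filled for both treatments on the left, and no point on the right is filled.

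Whether the response to overload differed between treatments was tested as an interaction, and none of the 10 genes was called, as 0% of all genes were (1021 of 18193 genes, and 1 of the 10, had an unadjusted p under 0.05). For Igf2 the response with tamoxifen minus that with vehicle was -0.92 ± 0.35 on the log2 scale (limma unadjusted p 0.0300, adjusted p 0.833). It was -0.47 without vehicle overload replicate 2 and -2.04 when its probe sets were averaged, the second of which was below background in sham. For Igf1 the difference in response was 0.06 ± 0.24 (95% interval -0.50 to 0.61) by its brightest probe set. The other 3 gave 0.48, 0.97 and 1.35 and their average 0.72, none of them called, so the size of this difference is not settled. The others ran from -0.46 ± 0.30 for Igfbp5 to 0.34 ± 0.31 for Igf1r.

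The next comparison was tamoxifen against vehicle within overloaded muscle, 3 arrays against 2. Limma called none of the 10 genes and 0% of all genes in either direction, while 4 of the 10 and 1932 of 18193 genes had an unadjusted p under 0.05. Those 4 were Igf1, Igfbp4 and Igfbp7, with higher levels after tamoxifen, and Igf2, with lower levels. For these 4 and for Igf2r the arrays of the groups did not overlap, which makes 3 genes higher and 2 lower in every tamoxifen array, where 16.9% and 12.6% of all genes did the same. In bulk muscle, fewer cells of a type and less RNA per cell cannot be told apart.

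Igf1 had a mean log2 level of 12.69 ± 0.01 (SD, n = 2) with vehicle and 13.42 ± 0.08 (SD, n = 3) with tamoxifen. The fitted difference was 0.72 ± 0.13 (SE), or 1.65-fold (95% interval 1.33 to 2.03), with a limma unadjusted p of 0.000616 and an adjusted p of 0.378. Igf2 had a mean log2 level of 13.42 ± 0.19 (SD, n = 2) with vehicle and 12.43 ± 0.31 (SD, n = 3) with tamoxifen. The ligands thus differed in opposite directions, Igf2 by -0.96 ± 0.19 (SE) with a limma unadjusted p of 0.00102 and an adjusted p of 0.378. Leaving out tamoxifen overload replicate 1 brought both past the threshold, Igf1 at 0.73 (adjusted p 0.0377) and Igf2 at -0.86 (adjusted p 0.0313), with 227 genes called in all. Without vehicle overload replicate 2, the only male array of that group, Igf2 differed by -0.52, which is the difference between the female arrays. Over male arrays alone it differed by -1.30.

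All 4 Igf1 probe sets were higher after tamoxifen, by 0.72 to 0.97 on the log2 scale, and both Igf2 probe sets were lower, by differences of -0.96 and -0.92, and none of these was called. Igfbp4 differed by 0.58 ± 0.14 (limma unadjusted p 0.00349) and Igfbp7 by 0.43 ± 0.16 (limma unadjusted p 0.0266), with adjusted p of 0.378 and 0.429. All 6 Igfbp4 probe sets were higher, by 0.58 to 1.03. Igf2r was lower in both its probe sets, with a leading difference of -0.24 ± 0.14. For Igf1r, Igfbp2, Igfbp3, Igfbp5 and Igfbp6 the differences were -0.04 to 0.23, each with a 95% interval that includes 0.

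Because any scaling of an array cancels within it, the log2 level of Igf1 minus that of Igf2 was also taken on each array. The zero of this measure has no meaning, as probe sets differ in brightness, but its change between arrays does. It was 1.02 in vehicle sham and 1.73 in tamoxifen sham. In vehicle overload it was -0.61 and -0.86, and in tamoxifen overload 1.26, 1.15 and 0.56 in replicates 1, 2 and 3. The overload groups did not overlap and their means differed by 1.72. The measure was formed with the opposite directions of these genes already known, so it restates them free of array scaling and no p-value is drawn from it.

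**Figure D4:**
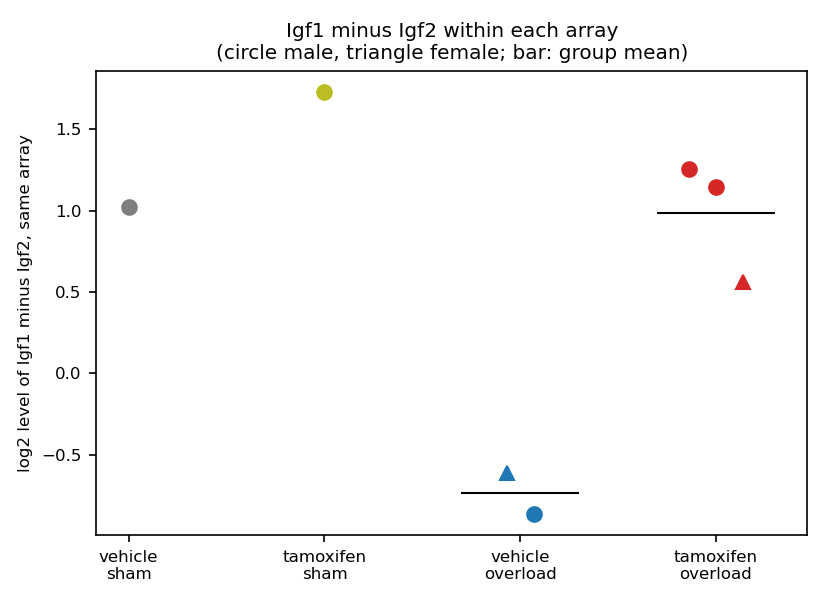
Log2 level of Igf1 minus log2 level of Igf2 on the same array (vertical axis) by group; circles are male and triangles female arrays, and bars are means of groups with over 1 array. The vehicle overload arrays, at -0.61 and -0.86, lie below all others, and the tamoxifen overload arrays span 0.56 to 1.26.

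In sham muscle, by leading probe sets, with 1 array per treatment and no test, Igf1 was 0.66 higher on the log2 scale after tamoxifen. The other Igf1 probe sets disagreed in direction, with vehicle and tamoxifen signals of 1168 and 1413, 311 and 296, and 387 and 298. Igf2 was almost level, at -0.04. Igfbp6 was 0.60 higher, Igfbp5 0.42, Igfbp7 0.37 and Igfbp4 0.26, and Igf1r was 0.31 lower (-0.31). Between female and male overloaded arrays none of the 10 genes was called, against 0.0495% of all genes. Igfbp6 was 0.39 ± 0.17 higher in females (limma unadjusted p 0.0497) and Igfbp3 0.52 ± 0.24 (limma unadjusted p 0.0647), both with an adjusted p of 0.980.

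Marker genes of cell types were called in both directions with overload, where 14.7% of all genes were called higher and 8.16% lower. With overload, 12 of 12 macrophage and monocyte markers, 9 of 11 markers of fibro-adipogenic progenitors and fibroblasts, and 8 of 8 genes of myoblast differentiation and fusion were called higher, while 1 of 10 endothelial markers was called higher and 1 lower. Also called were 4 of 9 satellite cell, 3 of 6 tendon and 2 of 8 smooth muscle and pericyte markers, all higher, and 1 of 10 muscle fibre and 1 of 3 Schwann cell markers, both lower. The summed macrophage signal was 5903 in vehicle sham and 10753 in tamoxifen sham, 27694 and 31246 in vehicle overload, and 33076 to 45660 in tamoxifen overload. Its order over the groups was that of the leading Igf1 probe set, whose sham step the other Igf1 probe sets did not all share. The sums of the tendon, lymphocyte and fibro-adipogenic and fibroblast lists were also lowest in vehicle sham, then tamoxifen sham, and highest on a tamoxifen overload array. In those lists the vehicle and tamoxifen overload arrays overlapped. The muscle fibre sum had the reverse order. Of 6 adipocyte markers 4 were called lower, and of 5 lymphocyte markers 1 was called higher, the pan-leukocyte gene Ptprc (log2 difference 2.14), while Cd3e and Cd79a were below background on every array.

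In overload, tamoxifen against vehicle gave a positive difference for 12 of 12 macrophage markers (median 0.49), 10 of 11 fibro-adipogenic and fibroblast markers (median 0.22) and 6 of 6 tendon markers (median 0.64), and for 10 of 10 endothelial markers (median 0.32) and 7 of 8 smooth muscle and pericyte markers (median 0.29). It gave a negative one for 10 of 10 muscle fibre markers (median -0.18), 8 of 9 satellite cell markers (median -0.82) and 6 of 8 myoblast differentiation and fusion genes (median -0.51), and none of all these was called. The summed signal of the satellite cell list was 25835 and 27584 with vehicle and 20498 to 24605 with tamoxifen. That sum is weighted to the brightest genes of the list, which includes Des, also on the smooth muscle and pericyte list. The mean log2 level of the satellite cell list was 9.11 and 9.48 with vehicle and 7.93 to 8.64 with tamoxifen. The myoblast sum was 29972 and 44749 with vehicle and 17270 to 33222 with tamoxifen, which overlap. The median over all genes was 0.03. The part of these cells in the Igf1 and Igf2 differences was not tested.

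**Figure D5:**
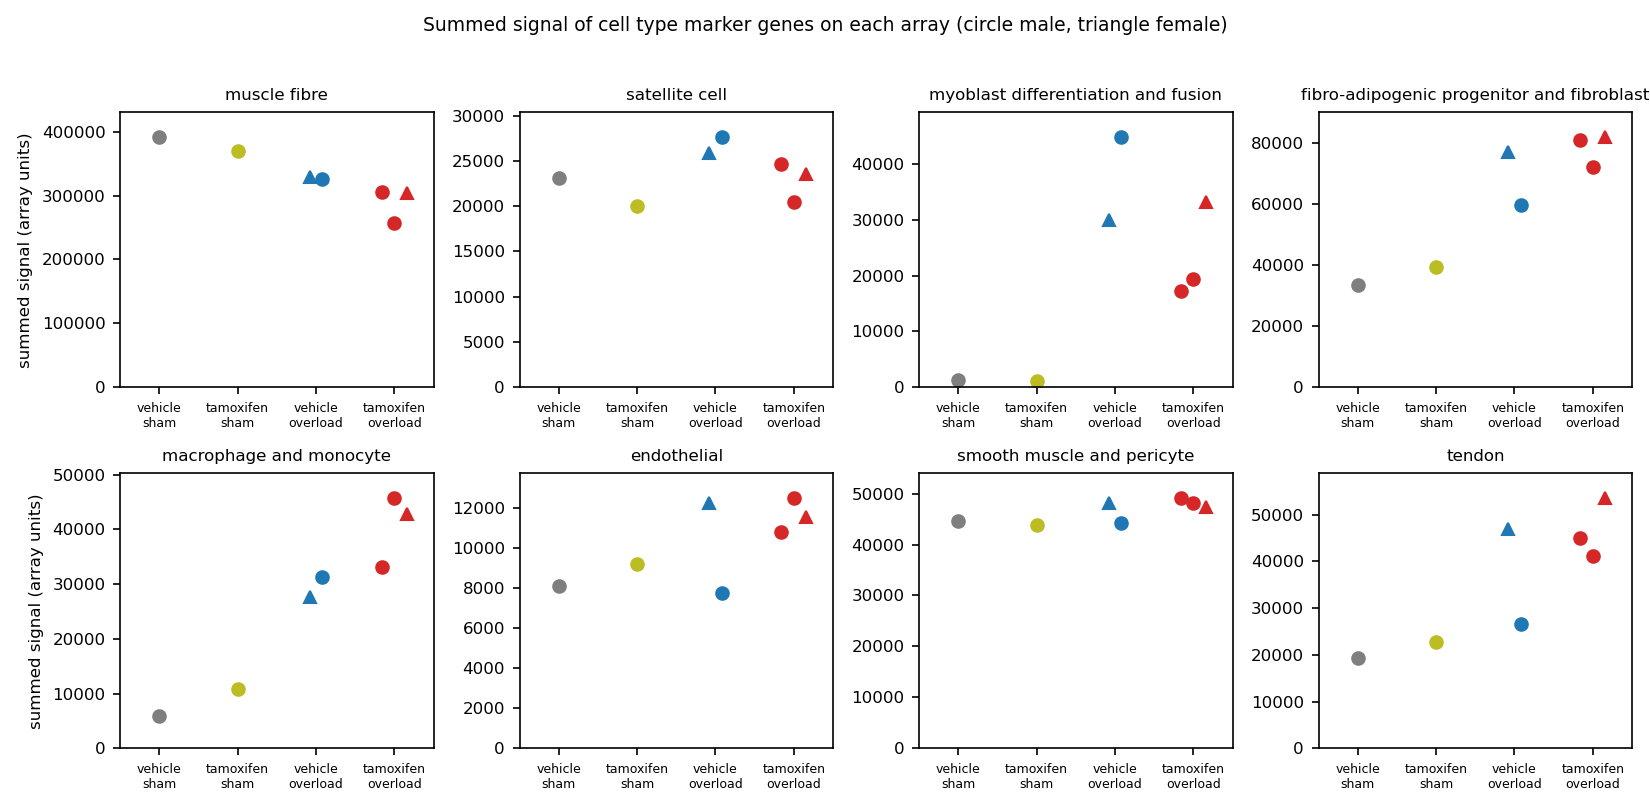
Summed signal (vertical axes, array units, from 0) of 8 cell type marker lists on each array by group; circles are male and triangles female. The macrophage and monocyte sum is lowest in sham, at 5903 and 10753 units, and highest in tamoxifen overload. The sum of the satellite cell list, which includes Des and is weighted to its brightest genes, is 25835 and 27584 in vehicle overload against at most 24605 in tamoxifen overload.

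The wider IGF pathway was read from a list of 33 genes, of which 31 were measured and 28 were above background on at least 1 array. With overload, 8 of the 31 were called higher and 6 lower, where 14.7% and 8.16% of all genes were. The median log2 difference of the list was 0.20, against 0.07 over all genes. Without vehicle overload replicate 2, which left 1 vehicle overload array, fewer genes were called, both in the list and over all genes.

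Among proteases and regulators of IGF release, Adam12, whose product cuts IGFBP-3 and IGFBP-5, rose by 4.99 ± 0.22 on the log2 scale (31.8-fold, with 1 of the 2 sham arrays below background). Htra1, a secreted serine protease that cuts IGFBP-5, rose by 0.87 ± 0.15. Pappa2, a protease of IGFBP-3 and IGFBP-5, was also called (2.60 ± 0.46), but this rests on vehicle sham at a signal of 2.41, below background; tamoxifen sham, at 56.3, lay within the range of the overloaded arrays, which began at 49.1. Pappa, the protease of IGFBP-4, and its inhibitors Stc1 and Stc2 were not called, with differences of 0.47, 0.94 and -0.09 (Stc1 passed only with no sex term, at an adjusted p of 0.0377). Lrp1, a receptor that binds IGFBP-3, rose by 1.07 ± 0.14.

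Growth hormone signalling, which drives Igf1 transcription in liver, had members called in opposite directions. The receptor gene Ghr fell by 0.84 ± 0.14 and the transcription factor gene Stat5b fell by 1.15 ± 0.13 on the log2 scale, whereas Socs2, a feedback inhibitor of the receptor, rose by 1.15 ± 0.19. The Ghr call was lost without vehicle overload replicate 2 (adjusted p 0.0589), and that of Socs2 when probe sets were averaged (0.0672).

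Of the imprinted genes on the list, Plagl1, a zinc finger transcription factor of the same imprinted network as Igf2, rose by 4.07 ± 0.17 (16.8-fold). Its signal was 368 and 525 in sham and 5280 to 10798 in overload. Grb10, an adaptor that inhibits insulin and IGF-I receptor signalling, rose by 2.08 ± 0.15 (4.23-fold).

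Among the insulin receptor gene Insr and genes downstream of the receptors, the adaptor gene Shc1 rose by 0.66 ± 0.15 and Insr fell by 0.62 ± 0.15. The kinase subunit gene Pik3ca fell by 0.63 ± 0.18 and the adaptor gene Grb14 fell by 0.48 ± 0.14. In this order, the 4 genes were not called in 4, 4, 6 and 9 of 15 alternatives. Each was lost without vehicle overload replicate 2 (adjusted p 0.155, 0.213, 0.347 and 0.210), that of Pik3ca also without tamoxifen overload replicate 2 (0.0832), and that of Grb14 also with any of 3 further arrays left out, vehicle overload replicate 1 (0.0843) and tamoxifen overload replicates 3 (0.0836) and 1 (0.0713). For Grb14, leaving out either female array, or both, gave the same log2 difference of -0.47 from the same male arrays, so these alternatives are not separate. Averaged over their probe sets, Insr and Grb14 turned to 0.17 and 0.83. The receptor substrates Irs1 (-0.07) and Irs2 (-1.22, adjusted p 0.0858) were not called, and Irs2 was below background on 2 of the 3 tamoxifen overload arrays. Irs2 passed without tamoxifen overload replicate 1 (0.0182) or 3 (0.0368). Igf2bp1, which encodes an RNA-binding protein, was called lower but was below background on all 5 overloaded arrays, and that call was lost without vehicle overload replicate 2 (0.134).

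Between tamoxifen and vehicle in overload, none of the 31 pathway genes was called. Of them 8 had a limma unadjusted p under 0.05, as had 1932 of all 18193 genes. Htra1 differed by 0.77 ± 0.15, Adam12 by 0.80 ± 0.22 and Plagl1 by 0.65 ± 0.17, each higher on every tamoxifen array, as 16.9% of all genes were. Without tamoxifen overload replicate 1, 2 of the 31 were called higher, as were 184 of all 18193 genes.

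The genes whose log2 level over the 7 arrays was most like that of Igf1, by Pearson's r, were Ccl8 (0.998), Adgra2 (0.997), Tmc8 (0.996), Aplnr (0.996) and Adamts12 (0.995). Ccl8 encodes a chemokine and Aplnr the apelin receptor. Such high values were common, as 982 of 14451 genes had an r over 0.95 with Igf1. For Igf2 they were Sesn3 (0.994), Commd6 (0.992), Cetn3 (0.991), Pisd (0.990) and Stk16 (0.990), and 140 genes had an r over 0.95. The arrays fall into sham and overload, so that a gene with the same step shares most of the pattern.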

How the data were processed

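Per the labels, biotinylated cDNA of 7 muscle RNA samples was read on Affymetrix mouse430_2.0 arrays, after a whole-transcript labelling kit. The authors deposited linear intensity values per probe set, each array scaled to a trimmed mean of 500; the submitters' processing notes name Partek, and no source used here says how probe sets were summarised. Values were analysed as log2(value + 1), one probe set per gene (highest mean), for 18193 genes with a single annotated symbol. limma 3.58.1 in R 4.3.3 fitted the 4 groups and sex (eBayes with an intensity trend, 2 residual and 5.95 prior degrees of freedom), with Benjamini-Hochberg adjustment. The fit was also run on simulated data whose spread came from the same trend fit, so that run cannot test the trend. Precision is limited by the number of arrays. The 10 genes, the marker lists and the pathway list were chosen with earlier results of these data known. Named genes are the 10, pathway genes that were called or have a set role, and the 5 most alike to each ligand (Pearson's r). Alternatives changed scaling, pseudocount (16), filter, sex term, spread model, probe set choice, and left out each array. The closing section gives their effect. Scaled arrays cannot show a change in total RNA.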

Additional observations from a re-analysis of the deposited data

How the results depend on the processing

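Igf1, Igf2 and Igfbp4 in overload against sham over both treatments kept their direction in 15 of 15 alternatives and their call in 13. With no intensity trend, 0 of the 10 genes and 0 of all genes were called over both treatments, with vehicle and with tamoxifen. An ordinary linear model gave the same. With no trend, 6, 5 and 4 of the 10 had a limma unadjusted p under 0.05, as had 5234, 3316 and 4123 of all 18193 genes. With the ordinary model, 5, 5 and 4 of the 10 had an unadjusted t-test p under 0.05, as had 4142, 2644 and 3302 of all genes. Leaving out 1 array gave 2 to 6 called genes with vehicle and 0 to 2 for tamoxifen against vehicle in overload; the other counts among the 10 stayed within 1.5 times. Several differences that were not called changed sign. In overload against sham, median centring gave -0.19 for Igf1r and -0.20 for Igfbp5, and leaving out 1 array gave -0.0098 to 0.19 for Igfbp5. With vehicle, averaging probe sets gave 0.30 for Igf1r, and leaving out 1 array gave -0.19 to 0.23 for Igf1r and -0.27 to 0.77 for Igfbp2. With tamoxifen, median centring gave -0.0075 for Igf1r and -0.060 for Igfbp6, quantile normalization gave 0.027 for Igfbp5, and leaving out 1 array gave -0.25 to 0.0065 for Igfbp5. For tamoxifen against vehicle in overload, quantile normalization gave -0.043 for Igf1r and 0.058 for Igfbp5, median centring gave -0.12 for Igf1r, averaging probe sets gave 0.15 for Igfbp5, and male arrays alone gave -0.22 for Igfbp2. In that comparison leaving out 1 array gave -0.22 to 0.21 for Igf1r, -0.22 to 0.82 for Igfbp2, -0.012 to 0.39 for Igfbp3 and -0.14 to 0.088 for Igfbp5, and for the interaction of Igf1 it gave -0.0063 to 0.11, while averaging probe sets gave 0.72. In the pathway list, for which these alternatives were added after seeing the data, Irs1 was 0.041 with quantile normalization, 0.19 with no sex term and -0.085 to 0.0029 with 1 array left out, and averaging probe sets gave 0.17 for Insr and 0.83 for Grb14. Averaging probe sets also left 9 of the 31 pathway genes called, against 14. The cause of these shifts was not tested. No paired analysis was possible because replicate numbers stand in 2 of the 7 titles, both of the same group. Both sham groups have 1 array, so their own spread is unknown.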
